A study of Mus musculus with 9 samples.

Results

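The proteasome is the protease complex that degrades ubiquitin-tagged proteins. Its genes were followed here in mouse leukemia stem cells after knockdown of Csnk1a1, which encodes casein kinase 1 alpha. Members were all array probes whose gene symbol starts with Psma, Psmb, Psmc, Psmd, Psme, Psmf or Psmg followed by a digit. The pattern matched 86 of the 45281 probes. Probes with a detection p under 0.05 on 3 or more of the 9 arrays were analysed, which left 61 member probes among 13641 detected probes in all. Of these 61, 3 probes belong to Psmc3ip and Psme3ip1, which share the name but are not proteasome subunits, so the account below is of 58 probes of 38 genes. They comprised 23 probes of 14 core genes (Psma, Psmb), 25 probes of 17 cap genes (Psmc, Psmd), and 10 probes of 7 genes of activators and assembly factors (Psme, Psmg).

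The cells were leukemia cells on a C57BL/6 background with an Actin-dsRed reporter, driven by the MLL-AF9 fusion oncogene, in all 3 groups. They were sorted from bone marrow of mice of the fourth serial transplant, as cells with low Hoechst staining that were dsRed+, CD34+ and high for c-kit and the Fc gamma receptor. A hairpin RNA against Csnk1a1, numbered 94 or 97, was carried by 3 samples each, and 3 samples carried a hairpin against luciferase (Luc). The comparisons ask which proteasome genes differed between each hairpin and Luc, and between hairpins. Whether replicates are separate animals or cultures is not stated in the labels. The p-values therefore cover only the spread among these arrays, which may be technical, and 3 arrays per group limit the precision.

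Protein degradation by the proteasome takes place inside a barrel, the core particle, made of outer rings of alpha subunits and inner rings of beta subunits. Some of the beta subunits carry the protease sites, and interferon can replace them by immune forms that favour peptides for display on the cell surface. The regulatory cap recognises ubiquitin, removes it, unfolds the substrate with a ring of ATPases and feeds it into the core. Activators of the Psme family can dock on the core in place of the cap, and dedicated chaperones assemble core and cap. When proteasome activity falls short, the transcription factor Nfe2l1 raises many subunit genes together through antioxidant response elements in their promoters.

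The promoters of 4 members are shown because these genes rose with knockdown and their windows hold one of the motifs searched, which mark known inputs to proteasome genes. RefSeq windows of 250 bases before to 50 bases after the gene start (GRCm38.p6) were found for 39 of the 47 subunit genes on the array. Each stretch below runs 5′ to 3′ on the gene's strand from 150 bases before the start to 20 after it, with the motif in capitals. Psmb6 (chr11:70525207-70525376, plus strand) and Psmb5 (chr14:54617976-54618145, minus strand) hold the antioxidant response element core TGACNNNGC. Psme1 (chr14:55578344-55578513, plus strand) holds the core of the interferon-stimulated response element on the opposite strand. Psmb9 (chr17:34187311-34187480, minus strand) holds a CCAAT box on the opposite strand.
Psmb6: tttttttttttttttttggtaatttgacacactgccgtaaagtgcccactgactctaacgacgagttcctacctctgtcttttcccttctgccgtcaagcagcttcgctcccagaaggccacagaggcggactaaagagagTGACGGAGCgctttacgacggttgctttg
Psmb5: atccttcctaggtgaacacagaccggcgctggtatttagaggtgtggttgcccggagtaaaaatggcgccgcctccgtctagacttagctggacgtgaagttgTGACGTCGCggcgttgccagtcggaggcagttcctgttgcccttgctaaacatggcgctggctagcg
Psme1: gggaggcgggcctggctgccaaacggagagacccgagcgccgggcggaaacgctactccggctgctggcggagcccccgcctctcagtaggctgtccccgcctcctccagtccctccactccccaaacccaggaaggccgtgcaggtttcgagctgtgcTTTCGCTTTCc
Psmb9: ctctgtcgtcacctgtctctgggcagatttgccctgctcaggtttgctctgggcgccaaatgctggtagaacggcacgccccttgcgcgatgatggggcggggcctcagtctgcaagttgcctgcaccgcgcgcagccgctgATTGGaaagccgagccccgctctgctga

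Both strands of every window were searched, and matches of different motifs did not overlap in any subunit window. TGACNNNGC was present in the windows of 6 of the 39 subunit genes (15.4%), against 14% of 27025 genes with a window. A CCAAT box was present in 14 of 39 (35.9%), against 41.1% of all genes, and the core of the interferon-stimulated response element in 5 of 39 (12.8%), against 3.99% of all genes. The 4 genes shown were chosen after their values were seen, and a match describes letters in a window, not a site in use. Windows of genes with a fall held motifs too. That of Psmd4 held the core of the interferon-stimulated response element and CCAAT boxes, and that of Psma7 a CCAAT box. The Psmb9 window shares 275 bases (chr17:34187306-34187580) with the window of Tap1, a peptide transporter of antigen presentation read from the opposite strand.

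The knockdown could not be checked on the arrays, because the 1 probe of Csnk1a1 was detected on 0 of 9 arrays (detection p 0.293 to 0.862). Luc arrays were dimmer: 13053 to 14280 probes were detected on hairpin 94 arrays and 12969 to 14168 on hairpin 97 arrays, against 9262 to 10347 on Luc arrays. Brightness therefore moved with knockdown and cannot be told apart from it. Listed markers of the labelled cells, 8 genes that include the sort markers Kit, Cd34 and the Fc receptors, all had a detected probe. Cd34 was the exception on Luc arrays, where its probe was detected on 0 of 3, against 2 of 3 arrays of each hairpin. Of the 16 detected probes of these 8 genes, 7 were higher and 0 lower in the mean of both hairpins, against 25% and 15.2% of all probes. With hairpin 97 alone 4 were higher and 1 lower, against 20.6% and 12.3%. The lower one was a Kit probe (-0.48, limma adjusted p = 0.0489). Listed genes of T and NK cells (7) and erythroid cells (4) had no probe that passed the filter. Detected probes were found for Cd79b of the B cell list, Gp9 of the megakaryocyte list, Adgre1 and Csf1r of the macrophage list, and Pecam1 and Cxcl12 of the endothelial and stromal list. Of these 8 probes 1, of Pecam1, passed as higher in the mean of both hairpins (limma adjusted p = 0.037), and it was detected on 3 hairpin 94 arrays, 0 hairpin 97 arrays and 0 Luc arrays. All 5 listed genes of mature neutrophils were higher with knockdown (S100a8, S100a9, Ltf, Ngp and Camp, median log2 fold change 1.91). Their summed signal was 10076 to 13524 on hairpin 94 arrays and 11141 to 15369 on hairpin 97 arrays, against 2195 to 2673 on Luc arrays, and the part of this difference in the results below was not tested.

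Proteasome genes did not move in 1 direction with knockdown of Csnk1a1. Values are log2 signals after background correction and quantile normalization, tested with limma at an adjusted p under 0.05 over all 13641 probes, so a change is relative to the rest of an array. In the mean of both hairpins against Luc, 19 of the 58 probes rose, 12 fell and 27 did not pass. Over all detected probes, 25% were called higher and 15.2% lower. Arrays of the 2 hairpins lay wholly above the Luc arrays in 14 member probes and wholly below in 10, against 21.5% and 12.6% of all probes. The median log2 fold change of the 58 probes was 0.16, against 0.11 over all probes tested. The catalytic Psmb6, its immune counterpart Psmb9, 3 ATPase genes of the cap and the activator Psme1 were among the genes that rose, and the structural core subunit Psmb2 and the ubiquitin receptor Psmd4 among those that fell. In bulk samples, fewer cells of a type and less RNA per cell cannot be told apart.

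The split of the calls depended on how the arrays were scaled. When arrays were scaled on always-detected probes, 15 member probes were higher and 20 lower, where 11.2% of all probes were higher and 60.4% lower. With scaling over all probes 55 were higher and 0 lower, where 72.9% of all probes were higher and 0.103% lower. These scalings moved the median of all probes to -0.55 and 0.88, against 0.11 with quantile normalization, and the members' median to -0.01 and 1.43. Of the 58 members 50 are themselves always-detected probes, so their median near 0 under that scaling is partly set by the scaling. In the mean of both hairpins, the members' median lay above that of all probes in each of these 3 scalings. With hairpin 94 alone and quantile normalization it lay below, at 0.086 against 0.105. Every fall of a member probe reported below became a positive value with scaling over all probes, and is a fall relative to the rest of the array. With each array's count of detected probes in the model, 0 member probes passed by limma, as did 0 of all probes. Before normalization, the deposited signal of 51 of the 58 probes was higher on all 6 hairpin arrays than on all 3 Luc arrays, and that of 0 probes lower, against 60.4% and 0.367% of all probes. The summed deposited signal of the members was 41241 to 60978 on hairpin 94 arrays and 47647 to 63788 on hairpin 97 arrays, against 22855 to 27030 on Luc arrays. With no filter on detection, the calls of Psmb8, Psmc5 (ILMN_1220632), Psmd1 (ILMN_2915861), Psmd12, Psme4 and Psmg2 (ILMN_3153450) described below ended.

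**Figure D1:**
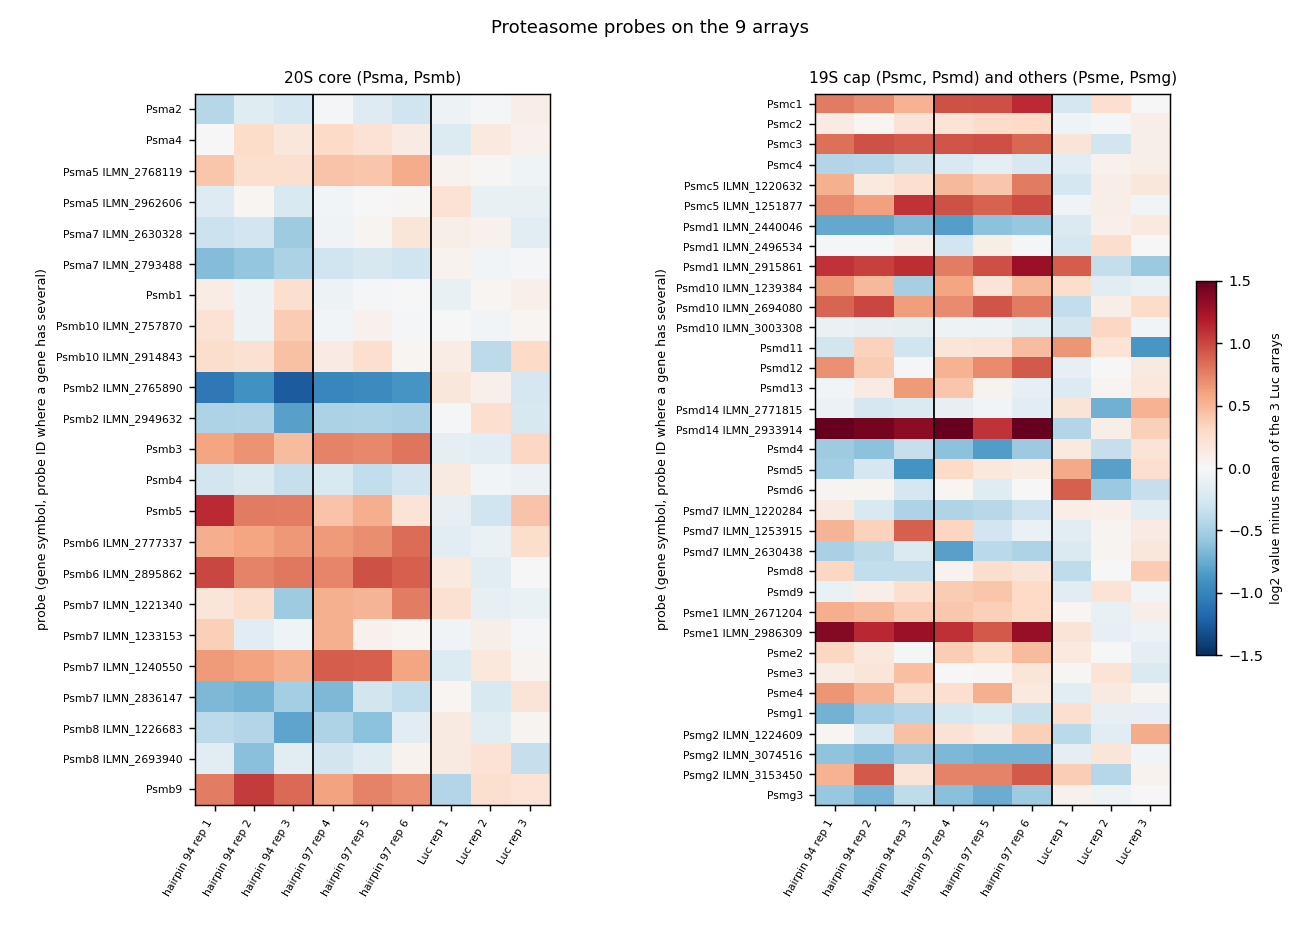
Each row is 1 of the 58 member probes and each column 1 array (hairpin 94, hairpin 97, then Luc, 3 arrays each), coloured by its normalized log2 value minus the mean of the 3 Luc arrays, with red higher and blue lower. Psmd14 (ILMN_2933914), Psme1 and Psmb6 are red on all 6 hairpin arrays and Psmb2 is blue on all 6, relative to the rest of each array (all values of Psmb2 turn positive with scaling over all probes).

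Among the catalytic beta subunits, Psmb6 rose in both of its probes. Psmb6 carries the caspase-like site of the core. Its probe ILMN_2895862 read 9.09, 8.83 and 8.87 with hairpin 94 and 8.82, 9.04 and 8.98 with hairpin 97, against 8.24, 7.93 and 8.09 with Luc. The hairpin arrays all lay above the Luc arrays, and the log2 fold change of the mean of both hairpins over Luc was 0.85 (SE 0.123, limma adjusted p = 0.000558). Its other probe, ILMN_2777337, gave 9.08, 9.12 and 9.19 with hairpin 94 and 9.17, 9.24 and 9.38 with hairpin 97, against 8.37, 8.43 and 8.80 with Luc. These groups did not overlap either, and the difference was 0.66 (SE 0.128, limma adjusted p = 0.00253).

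Psmb5, the chymotrypsin-like subunit and the target of bortezomib, had 1 detected probe. Its values were 7.74, 7.40 and 7.39 with hairpin 94 and 7.05, 7.17 and 6.83 with hairpin 97, against 6.50, 6.32 and 7.05 with Luc. Hairpin 94 arrays lay above all others, while hairpin 97 arrays overlapped Luc replicate 3. The rise was 0.64 in the mean of both hairpins (SE 0.173, limma adjusted p = 0.0136) and 0.49 without Luc replicate 2, where the call ended (adjusted p = 0.0546). Hairpin 94 alone gave 0.89 (adjusted p = 0.0075), and hairpin 97 alone gave 0.40, which did not pass (adjusted p = 0.151).

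The 4 probes of Psmb7, the trypsin-like subunit, pointed in different directions. ILMN_1240550 read 9.68, 9.64 and 9.57 with hairpin 94 and 9.94, 9.93 and 9.63 with hairpin 97, against 8.83, 9.19 and 9.08 with Luc, a rise of 0.70 (SE 0.128, limma adjusted p = 0.00195). ILMN_2836147 read 7.65, 7.61 and 7.81 with hairpin 94 and 7.65, 8.05 and 7.96 with hairpin 97, against 8.36, 8.10 and 8.52 with Luc, a fall of 0.54, or -0.54 (SE 0.139, adjusted p = 0.0115). Both separated the hairpin arrays from the Luc arrays without overlap, in opposite directions. The remaining probes gave 0.29 and 0.13 and did not pass, except that the first passed without hairpin 94 replicate 3 (0.41).

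The immune beta subunits, which interferon induces, also split. Psmb9, the immune counterpart of Psmb6, read 6.67, 6.95 and 6.76 with hairpin 94 and 6.51, 6.65 and 6.59 with hairpin 97, against 5.46, 6.14 and 6.11 with Luc. All 6 hairpin arrays were above the Luc arrays, by 0.79 on the log2 scale (SE 0.162, limma adjusted p = 0.00353). Psmb8, the counterpart of Psmb5, was lower in its brighter probe, with 9.73, 9.68 and 9.34 with hairpin 94 and 9.66, 9.50 and 9.96 with hairpin 97, against 10.25, 9.95 and 10.16 with Luc. Its change of -0.48 (SE 0.147, adjusted p = 0.0244) was small against the spread: 1 hairpin 97 array reached the Luc range, and the call ended without Luc replicate 1, Luc replicate 3, hairpin 97 replicate 4 or hairpin 97 replicate 5 (-0.41 to -0.47). The dimmer Psmb8 probe gave -0.23 and did not pass. Psmb10, the counterpart of Psmb7, gave 0.09 and 0.22 in its 2 probes, neither past the threshold. Of the 5 probes of immune subunits 1 rose and 1 fell, near the shares of all probes (25% and 15.2%).

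**Figure D2:**
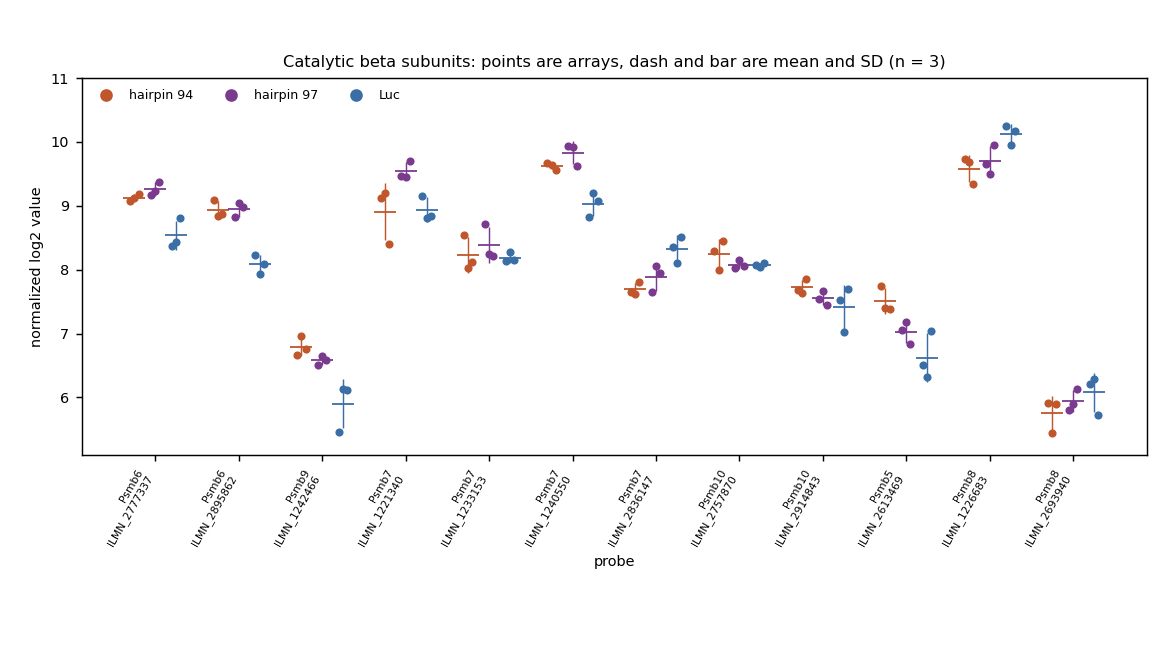
Normalized log2 values (vertical axis) of the 12 detected probes of catalytic beta subunits and their immune forms, with 1 point per array, a dash for the group mean and a bar for the SD (n = 3 per group). The hairpin points of Psmb6 and Psmb9 lie above all Luc points, those of Psmb7 lie above Luc in 1 probe and below it in another, and Psmb8 lies lower relative to the rest of the array only (positive with scaling over all probes).

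The other beta subunits have structural roles in the inner rings. Psmb2 fell in both probes. ILMN_2765890 read 10.92, 11.09 and 10.75 with hairpin 94 and 11.02, 11.04 and 11.10 with hairpin 97, against 12.16, 12.07 and 11.74 with Luc, and the change was -1.01 (SE 0.132, limma adjusted p = 0.000378). It was the largest fall among the member probes. The probe's deposited signal was 1998 to 3261 on hairpin 94 arrays and 2356 to 3115 on hairpin 97 arrays, against 1844 to 2078 on Luc arrays, so the fall appears only relative to the rest of the array. ILMN_2949632 gave -0.53 (adjusted p = 0.0125), with all hairpin arrays below all Luc arrays, and missed the threshold without Luc replicate 2 (-0.40, adjusted p = 0.0504).

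Psmb3 moved the other way. It read 10.32, 10.40 and 10.20 with hairpin 94 and 10.47, 10.45 and 10.53 with hairpin 97, against 9.58, 9.56 and 10.04 with Luc, a rise of 0.67 (SE 0.134, limma adjusted p = 0.00308) with no overlap between groups. Psmb1 (0.03, adjusted p = 0.864) and Psmb4 (-0.29, adjusted p = 0.0582) did not pass. Psmb4 passed as lower under 8 of the alternative settings, among them the series matrix values (-0.27), and all of its hairpin arrays lay below the Luc arrays. Of the 12 probes of the constitutive beta ring 5 rose and 3 fell, against 25% and 15.2% of all probes.

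The alpha ring gates entry into the core. Its 6 detected probes belonged to Psma2, Psma4, Psma5 and Psma7, with 1 higher and 1 lower in the mean of both hairpins, near the shares of all probes (25% and 15.2%). Psma7 fell in ILMN_2793488, which read 9.80, 9.87 and 9.98 with hairpin 94 and 10.15, 10.21 and 10.15 with hairpin 97, against 10.50, 10.41 and 10.44 with Luc. Hairpin 94 arrays were lowest and hairpin 97 arrays lay between them and Luc, with a change of -0.42 for the mean of both (SE 0.105, limma adjusted p = 0.00917). Its second probe gave -0.16 and did not pass. Psma5 passed as higher in ILMN_2768119 (4.68 to 4.87 with hairpin 94 and 4.86 to 5.0 with hairpin 97, against 4.39 to 4.50 with Luc). This probe was detected on all 6 hairpin arrays and on 0 of 3 Luc arrays, and lay so close to the detection floor that no fold is given. Its call ended with cyclic loess, an offset of 50, no background correction or the series matrix values, and its value turned negative when arrays were scaled on always-detected probes. The brighter Psma5 probe gave -0.07. Psma2 (-0.23, adjusted p = 0.144) and Psma4 (0.18, adjusted p = 0.282) did not pass, although Psma2 passed as lower under 3 alternative settings, among them no background correction (-0.22). Psma1, Psma3 and Psma6 had no detected probe, so 3 of the 7 positions of the ring were not measured.

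ATPases of the cap, which unfold substrates, rose in 3 of the 5 genes detected. Psmc3 read 8.49, 8.61 and 8.58 with hairpin 94 and 8.60, 8.63 and 8.52 with hairpin 97, against 7.85, 7.38 and 7.74 with Luc. Its 6 hairpin arrays lay within a narrow range well above Luc, and the rise was 0.91 (SE 0.128, limma adjusted p = 0.00049). Psmc1 had 7.42, 7.35 and 7.16 with hairpin 94 and 7.60, 7.61 and 7.76 with hairpin 97, against 6.39, 6.89 and 6.65 with Luc, a rise of 0.84 (SE 0.135, adjusted p = 0.000968). Psmc5 rose by 0.87 in ILMN_1251877 (8.06 to 8.52 with hairpin 94 and 8.33 to 8.43 with hairpin 97, against 7.40 to 7.53 with Luc, adjusted p = 0.00061).

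The other Psmc5 probe, ILMN_1220632, rose by 0.44 (adjusted p = 0.038), with 1 Luc array above 1 hairpin 94 array. Its call ended without Luc replicate 1, hairpin 94 replicates 1 or 3, or hairpin 97 replicates 4 or 6, with the lowest value of 0.30 without Luc replicate 1. Psmc2 gave 0.19 (adjusted p = 0.18) and passed as higher under 2 alternatives, the series matrix values and no background correction (both 0.18). Psmc4 went the other way, at -0.30 (SE 0.111, adjusted p = 0.0491), a call so near the threshold that it ended without any 1 of the arrays other than Luc replicate 1. Psmc6 had no detected probe. Among all 6 ATPase probes 4 rose and 1 fell, where 25% of all probes were higher and 15.2% lower.

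Psmd14, the deubiquitinase that cuts ubiquitin chains off incoming substrates, held the largest rise of all member probes, in 1 of its 2 probes. ILMN_2933914 read 6.39, 6.25 and 6.15 with hairpin 94 and 6.36, 5.90 and 6.59 with hairpin 97, against 4.37, 4.90 and 5.17 with Luc. All 6 hairpin arrays lay above the Luc arrays, the change was 1.46 (SE 0.196, limma adjusted p = 0.000397), and 2 of the 3 Luc arrays detected the probe. The Luc values lay near the detection floor of the Luc arrays (4.88 to 5.07), so the size of the rise is uncertain. Over the alternative settings it went down to 0.38, and the call ended only with the count of detected probes as a covariate. The second probe, ILMN_2771815, read 5.57, 5.41 and 5.44 with hairpin 94 and 5.54, 5.62 and 5.49 with hairpin 97, against 5.86, 4.94 and 6.18 with Luc. Its Luc arrays spanned the hairpin arrays, and the change of -0.15 did not pass, though without Luc replicate 2 it was called lower (-0.51).

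Psmd4, a ubiquitin receptor of the cap, fell. It read 10.52, 10.45 and 10.71 with hairpin 94 and 10.45, 10.22 and 10.51 with hairpin 97, against 11.20, 10.71 and 11.25 with Luc. Luc replicate 2 touched the hairpin 94 range, and the change was -0.58 (SE 0.149, limma adjusted p = 0.0109). Psmd2, another ubiquitin-binding scaffold subunit, had no detected probe, and neither did Psmd3.

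Psmd1, the large scaffold subunit to which ubiquitin receptors bind, gave 3 different answers. ILMN_2915861 read 5.96, 5.90 and 5.99 with hairpin 94 and 5.65, 5.85 and 6.16 with hairpin 97, against 5.79, 4.52 and 4.32 with Luc, a change of 1.04 (SE 0.275, limma adjusted p = 0.0124). It was detected on 1 of 3 Luc arrays, and that array overlapped the hairpin 97 arrays. The call ended when arrays were scaled on always-detected probes (0.17, adjusted p = 0.437) and with no filter (adjusted p = 0.061). ILMN_2440046 read 11.02, 11.02 and 11.12 with hairpin 94 and 10.96, 11.17 and 11.22 with hairpin 97, against 11.57, 11.86 and 11.93 with Luc, a change of -0.70 (SE 0.125, adjusted p = 0.00167) with no overlap. ILMN_2496534 gave -0.03.

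The lid of the cap holds scaffold subunits around Psmd14. Psmd12 rose by 0.53 (SE 0.163, limma adjusted p = 0.0244), a call that ended without Luc replicate 1, Luc replicate 2 or hairpin 97 replicate 6 (0.47 to 0.53). Psmd7, the partner of Psmd14, fell in 1 of 3 probes (-0.46, adjusted p = 0.0237), and that call ended without Luc replicate 2, Luc replicate 3 or hairpin 97 replicate 4 (-0.38 to -0.44). Its others gave -0.29, which passed as lower without hairpin 94 replicate 1 (-0.37), and 0.28. The latter, ILMN_1253915, was called higher with hairpin 94 alone (0.59) and gave -0.02 with hairpin 97. Psmd6 (-0.06), Psmd8 (0.01), Psmd11 (0.10) and Psmd13 (0.17) did not pass. Psmd6 was detected on 2 arrays of each hairpin and on 1 of 3 Luc arrays, and Psmd11 on 2 of 3 Luc arrays. Of the 14 probes of non-ATPase cap subunits 3 rose and 3 fell, near the shares of all probes (25% and 15.2%).

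Activators dock on the core in place of the cap. Psme1, a subunit of the interferon-inducible activator ring, rose in both probes. ILMN_2986309 read 9.70, 9.46 and 9.61 with hairpin 94 and 9.41, 9.25 and 9.63 with hairpin 97, against 8.52, 8.20 and 8.25 with Luc, a change of 1.19 (SE 0.133) with the smallest adjusted p of any member probe (0.000171 by limma). Its deposited signal was 870 to 1150 on hairpin 94 arrays and 734 to 1148 on hairpin 97 arrays, against 218 to 234 on Luc arrays, and the ratio of mean signals, 4.40, was the highest among the 58 probes. ILMN_2671204 read 8.21, 8.16 and 8.04 with hairpin 94 and 8.07, 8.02 and 7.96 with hairpin 97, against 7.69, 7.54 and 7.75 with Luc, a smaller rise of 0.41 (SE 0.110, adjusted p = 0.0125). Neither probe showed overlap between hairpin and Luc arrays.

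Psme2, the partner of Psme1 in the same ring, gave 0.26 and did not pass (adjusted p = 0.121). It read 6.89, 6.73 and 6.54 with hairpin 94 and 6.95, 6.85 and 7.06 with hairpin 97, against 6.72, 6.57 and 6.44 with Luc, so hairpin 97 arrays lay above Luc and hairpin 94 arrays overlapped it. Psme4, a nuclear activator, rose by 0.39 (SE 0.141, limma adjusted p = 0.0453). Its arrays did not overlap, but the call ended without Luc replicates 1 or 3, hairpin 94 replicates 1 or 2, or hairpin 97 replicates 4 or 5 (0.31 to 0.41). The nuclear ring activator Psme3 gave 0.16. Of the 5 activator probes 3 rose and 0 fell, where 25% of all probes were higher and 15.2% lower. With hairpin 97 alone 1 of the 5 rose, where 20.6% of all probes were higher, and with hairpin 94 alone 3, where 20% were. Between the hairpins, 0 of the 5 passed by limma even at an unadjusted p under 0.05, against 8.55% of all probes.

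Of the 5 probes of core assembly factors 3 fell and 1 rose, where 15.2% of all probes were lower and 25% higher. Psmg3, a chaperone of alpha ring assembly, read 8.37, 8.24 and 8.56 with hairpin 94 and 8.31, 8.20 and 8.41 with hairpin 97, against 8.99, 8.86 and 8.95 with Luc. Its change was -0.59 (SE 0.118, limma adjusted p = 0.003), with all hairpin arrays below all Luc arrays. Psmg1 and Psmg2 form another such chaperone pair. Psmg1 was at -0.41 (SE 0.128, adjusted p = 0.027), also without overlap, although the call ended without Luc replicate 1, hairpin 94 replicate 1 or hairpin 97 replicates 4 or 6 (-0.29 to -0.41).

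Psmg2 fell in its brightest probe, ILMN_3074516 (7.94, 7.88 and 8.0 with hairpin 94 and 7.86, 7.83 and 7.83 with hairpin 97, against 8.39, 8.73 and 8.51 with Luc). The change was -0.65 (SE 0.114, limma adjusted p = 0.00152). ILMN_3153450 rose by 0.67 (SE 0.194, adjusted p = 0.0188), with an overlap between Luc replicate 1 and hairpin 94, and missed the threshold without Luc replicate 2 (0.46), with no filter, or when arrays were scaled on always-detected probes (0.26). Its remaining probe, detected on 1 of 3 Luc arrays, gave 0.15. Psmg4 had no detected probe.

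The cap has its own assembly chaperones, Psmd5, Psmd9 and Psmd10. Psmd10, also known as gankyrin, rose in ILMN_2694080, which read 5.89, 6.03 and 5.64 with hairpin 94 and 5.73, 5.96 and 5.79 with hairpin 97, against 4.65, 5.12 and 5.29 with Luc. The change was 0.82 (SE 0.159, limma adjusted p = 0.00254), and 2 of the 3 Luc arrays detected the probe. When arrays were scaled on always-detected probes its value was -0.02, and with cyclic loess it was 0.29 and did not pass (adjusted p = 0.0936). The other Psmd10 probes gave -0.11 and 0.32, the second of which passed without hairpin 94 replicate 3 (0.50). Psmd5 gave -0.19 and was called lower without Luc replicate 2 (-0.59). Psmd9 was detected on 1 of 3 hairpin 94 arrays, 3 of 3 hairpin 97 arrays and 0 of 3 Luc arrays, too close to the detection floor for a fold.

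**Figure D3:**
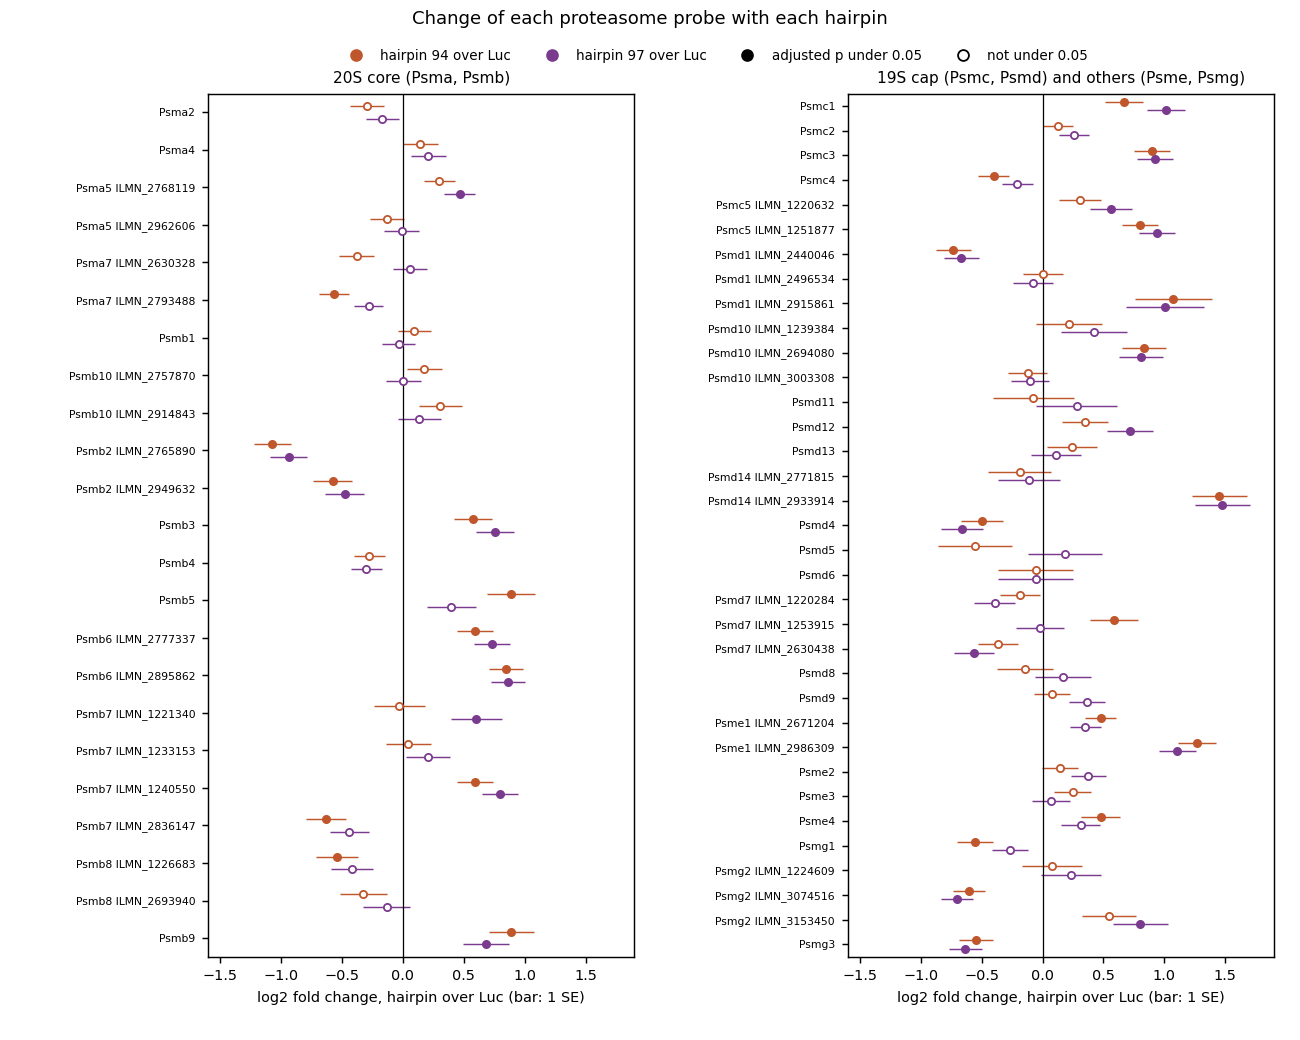
Log2 fold change of each member probe for hairpin 94 over Luc (orange) and hairpin 97 over Luc (purple), with bars of 1 SE and filled points where the limma adjusted p was under 0.05. Both hairpins share the 3 Luc arrays, and the largest falls turn positive with scaling over all probes. Rises such as Psmd14 (ILMN_2933914), 1.45 with hairpin 94 and 1.47 with hairpin 97, are of similar size with either hairpin. The Luc values of that probe lie near the detection floor.

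Tested for each hairpin against the same 3 Luc arrays, 16 of the 58 probes rose and 11 fell with hairpin 94, where 20% of all probes were higher and 12.3% lower. With hairpin 97, 17 rose and 7 fell, where 20.6% of all probes were higher and 12.3% lower. Without hairpin 97 replicate 6 the count of rises with hairpin 97 was 10, and the share of all probes called higher was 14.3%. The largest rises with hairpin 94 were in Psmd14 (1.45), Psme1 (1.27), Psmd1 (1.07), Psmc3 (0.90) and Psmb9 (0.89), and with hairpin 97 in Psmd14 (1.47), Psme1 (1.11), Psmc1 (1.01), Psmd1 (1.01) and Psmc5 (0.94). The largest falls with hairpin 94 were in Psmb2 (-1.07), Psmd1 (-0.73), Psmb7 (-0.63), Psmg2 (-0.60) and the second Psmb2 probe (-0.58). With hairpin 97 they were in Psmb2 (-0.94), Psmg2 (-0.70), Psmd1 (-0.67), Psmd4 (-0.66) and Psmg3 (-0.63).

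Some of these single-hairpin calls rested on particular arrays. The Psmd1 rise ended as a call with hairpin 94 without Luc replicates 2 or 3 or any hairpin 94 array (0.80 to 1.10). With hairpin 97 it ended without Luc replicates 2 or 3, hairpin 94 replicates 1 or 3, or any hairpin 97 array (0.73 to 1.12). The second Psmb2 probe missed the threshold with hairpin 94 without Luc replicate 2 (-0.45) or hairpin 94 replicate 3 (-0.46), and Psmd4 with hairpin 97 without hairpin 97 replicate 5 (-0.58).

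Between the hairpins, 0 of 58 member probes passed in either direction by limma, where 0.0293% of all probes were higher and 0.11% lower with hairpin 97 than with hairpin 94. At an unadjusted p under 0.05, 5 member probes were higher with hairpin 97 and 2 lower, against 8.55% of all probes in either direction. The higher ones were Psma7 in both probes, Psmb7 (ILMN_1221340), Psmc1 and Psmd5, with differences of hairpin 97 minus hairpin 94 from 0.28 to 0.74. Psma7 (ILMN_2630328) read 10.25, 10.35 and 10.49 with hairpin 97 against 9.98, 10.02 and 9.77 with hairpin 94, a difference of 0.44 (SE 0.140, adjusted p = 0.352) without overlap. With the deposited series matrix values both Psma7 probes passed (0.41 with adjusted p = 0.0463, and 0.27 with adjusted p = 0.0425). The lower ones were Psmb5, with -0.49 (SE 0.200, adjusted p = 0.522), and Psmd7 (ILMN_1253915), with -0.61 (adjusted p = 0.354). A p that misses the threshold does not show that the hairpins acted alike. The members' median of hairpin 97 minus hairpin 94 was 0.11, against 0.01 over all probes.

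Probes of the same gene often disagreed. Among the 14 member genes with several detected probes (34 probes), 7 had probes of opposite sign in the mean of both hairpins over Luc, which is 50%, against 51.7% of 2669 genes with several detected probes. In 3 of them, Psmb7, Psmd1 and Psmg2, probes passed the threshold in both directions. In 4 of them every detected probe passed in 1 direction: Psmb6, Psmc5 and Psme1 as higher and Psmb2 as lower. The median spread between the highest and lowest probe of a gene was 0.61 on the log2 scale, against a median SE of 0.138 for a member probe. Which transcripts each probe reads is not annotated in the tables used here.

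**Figure D4:**
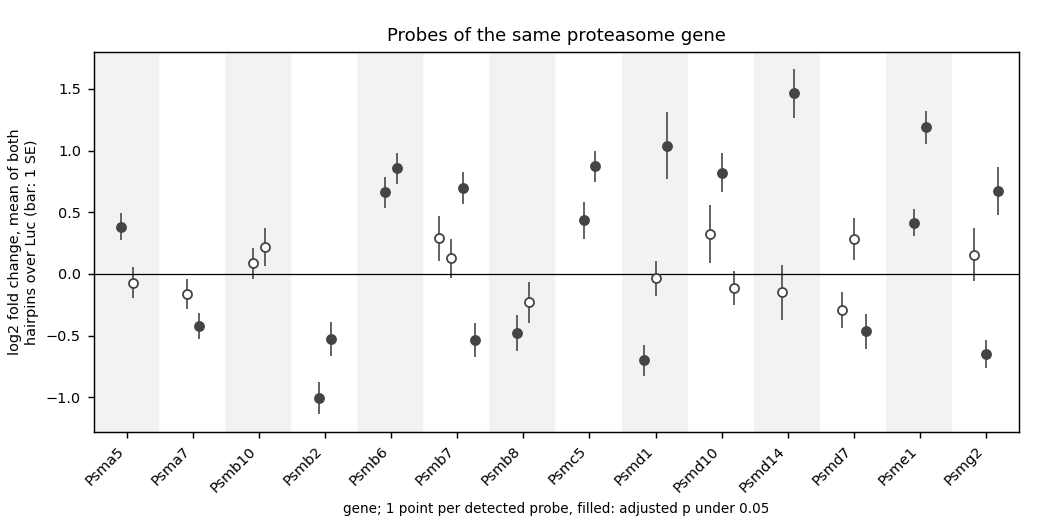
Log2 fold change of the mean of both hairpins over Luc (vertical axis, bars of 1 SE) for each detected probe of the 14 member genes that have several, with filled points where the limma adjusted p was under 0.05. The probes of Psmb6, Psmc5 and Psme1 lie above 0 and those of Psmb2 below it (above it with scaling over all probes), while Psmb7, Psmd1 and Psmg2 have filled points on both sides.

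Detected probes were divided into 3 equal groups by their mean log2 value, and all 12 falls of member probes were in the brightest group. Among the 43 members in the brightest group, 13 rose and 12 fell, where 27.0% of all its probes were higher and 25.9% lower. The counts by role above are set against all detected probes, not against probes of like brightness. The middle group held 11 members, with 5 higher and 0 lower, where 27.8% of all its probes were higher and 14.2% lower. The dimmest group held 4 members, with 1 higher and 0 lower, where 20.2% of all its probes were higher and 5.56% lower. With the fit restricted to probes detected on all 9 arrays, 15 of 50 members rose and 13 fell, where 24.7% of such probes were higher and 29.1% lower.

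Partners and regulators of the proteasome were also measured. Of 20 listed genes on the array 17 were detected with 30 probes, of which 9 rose and 3 fell, against 25% and 15.2% of all probes, with a median of 0.28. Nfe2l1, the transcription factor that raises subunit genes, rose by 0.59 (SE 0.128, limma adjusted p = 0.00461). Uchl5, a deubiquitinase bound to the cap, rose in 3 of 4 probes (0.78, 0.87 and 1.06), and the fourth gave 0.39. The small cap subunit Sem1 rose by 0.85 (SE 0.137, adjusted p = 0.000969).

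Rad23b, which shuttles ubiquitinated proteins to the cap, rose by 1.02 in 1 probe and by at least 2.20-fold in another that was undetected on all Luc arrays (limma adjusted p = 0.000153). That bound sets the mean of the hairpin arrays against the detection floor of the Luc arrays. The remaining Rad23b probe, also undetected on all Luc arrays, did not pass and was too close to that floor for a fold. The adaptor Ecpas rose in 1 of 3 probes (0.87, detected on 1 of 3 Luc arrays) and gave -0.50 in another. The third was undetected on all Luc arrays, did not pass and was too close to the detection floor for a fold. The chaperone Hspa8 rose in 1 of 3 probes (1.24), with 0.29 and -0.45 in the others. Vcp, which extracts ubiquitinated proteins from complexes, fell (-0.81, adjusted p = 0.00193), as did the ubiquitin ligase Ube3c (-0.72) and the shuttle factor Ubqln4 (-0.64). Pomp, the maturation factor of the core, gave 0.28 and did not pass (adjusted p = 0.0603).

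The immune subunits and Psme1 serve antigen processing. Of 16 detected probes of 10 genes of that list 4 rose and 3 fell, near the shares of all probes (25% and 15.2%), with a median of 0.22. Tap1, whose promoter window overlaps that of Psmb9, gave 0.18 (SE 0.241, limma adjusted p = 0.587) and was detected on 2 of 3 Luc arrays. The class I chain H2-K1 fell (-0.81, adjusted p = 0.00366) while H2-D1 gave 1.32 (adjusted p = 0.000543) in 1 probe and -0.10 in the other. Beta-2 microglobulin, B2m, rose by 0.48 in 1 probe and gave 0.47 in the other, which did not pass. Irf1, an interferon-induced transcription factor, had 1 probe higher (0.72) and 1 lower (-0.45). Its other detected probes were undetected on all Luc arrays and did not pass. Calr fell (-0.73) and Pdia3 rose (0.54), both of which help load peptides.

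**Figure D5:**
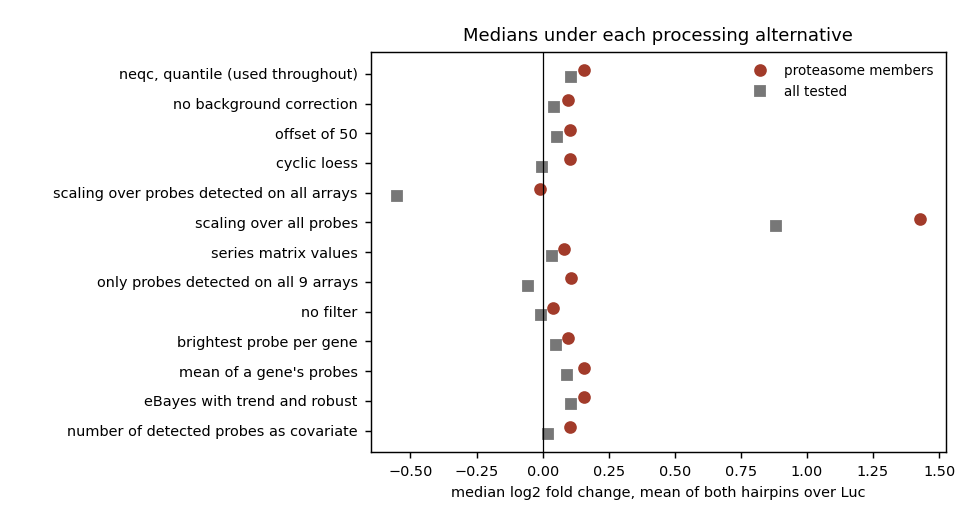
Median log2 fold change of the mean of both hairpins over Luc for the member probes (red circles) and for all probes or genes tested (grey squares) under each processing alternative. The members' median ranges from -0.01 to 1.43 and lies to the right of that of all tested in each of the 13 settings drawn; both medians move most with the scalings over always-detected probes and over all probes.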

How the data were processed

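Per array, the authors deposited the intensity of each probe (average bead signal, per the file headers) with its detection p-value, not brought to a common scale, as the values show. The deposited series matrix holds log2 values with the rank order of these signals (smallest rank correlation 1) and a median of 6.61 in each column. They are not centred per gene, and the software behind them is not given in the sources used here. No slide or scan date is given either, and batches could not be tested.

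Signals were background corrected and quantile normalized with neqc (limma 3.58.1, R 4.3.3, offset 16, negative controls inferred from detection p-values). Group means were fitted to all 9 arrays with lmFit and eBayes, and 4 contrasts were tested with Benjamini-Hochberg adjustment over 13641 probes. The probe was the unit of the test. Symbols come from the platform annotation table, which gave 34885 probes 1 symbol, 18 several and 10378 none, and all 86 member symbols matched the RefSeq gene table (GRCm38.p6). A probe undetected on all arrays of a group gets a bound against the detection floor in place of a fold.

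The members, gene lists and cell markers were chosen with earlier results of these data known. Named in any case were the catalytic and immune beta subunits, the alpha ring, the ATPases, Psmd2, Psmd4, Psmd14, the activators and the assembly factors, with the 5 largest rises and falls past the threshold in each comparison. Other genes were named after their values were seen. On simulated data (13641 probes, 200 changed) the fit for both hairpins against Luc recovered 66% of log2 changes of size 1 and 19% of size 0.5, and 3 of its 88 calls were false. The shares were 53% and 0% for hairpin 97 against hairpin 94, where 2 of 55 calls were false. The simulated arrays had independent noise and no brightness difference between Luc and hairpins. In the data 25% of probes were called higher and 15.2% lower for both hairpins, far more than were changed here. These rates therefore describe the simulated setting and cannot be carried over to the real comparisons.

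Alternatives were the background correction and offset, cyclic loess, scaling over all probes or over those detected on all arrays, the series matrix values, 2 other filters, 1 probe or a mean per gene, eBayes with trend and robust, brightness as a covariate, a replicate block and each array left out. The fit without a block on 6 arrays was added after seeing the data.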

Additional observations from a re-analysis of the deposited data

How the results depend on the processing

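A result kept its call if it stayed higher, lower or short of the threshold. A change of sign between 2 values short of it was not counted. Of 81 single-probe results, 77 kept their call without background correction, 79 with an offset of 50, 76 with cyclic loess and 77 with the series matrix values. The call was kept in 79 with trend and robust, 72 with no filter and 68 with scaling over probes detected on all arrays. It was kept in 61 with probes averaged per gene, 33 with scaling over all probes and 28 with each array's count of detected probes as a covariate. Of the 31 probes called for both hairpins, 21 kept their call in every left-out array and 10 in every alternative other than the covariate. In parentheses after each count below is the share of all probes or genes called in that direction in the same fit. For both hairpins, rises (19 in the main fit) became 55 with scaling over all probes (72.9%) and 12 with the brightest probe per gene (23.9%). They became 11 with probes averaged per gene (24.9%, both over 38 member genes) and 0 with the covariate (0%). Falls (12) became 20 with scaling over always-detected probes (60.4%), 0 with scaling over all probes (0.103%) and 0 with the covariate (0%). For hairpin 94, rises (16) became 52 with scaling over all probes, 10 with the mean of probes and 0 with the covariate, and falls (11) became 20 with scaling over always-detected probes, 0 with scaling over all probes, 7 with the mean of probes and 0 with the covariate. For hairpin 97, rises (17) became 55 with scaling over all probes (69.0%) and 10 with the brightest probe (19.9%). They became 9 with the mean of probes (20.6%) and 0 with the covariate (0%). Its falls (7) became 12 without background correction, 11 with an offset of 50, 16 with scaling over always-detected probes, 0 with scaling over all probes, 13 with the series matrix, 4 with the mean of probes, 11 with trend and robust and 0 with the covariate. For hairpin 97 against hairpin 94, rises became 2 with the series matrix (0.301%). Leaving out each array gave 16 to 20 rises (20.8% to 25.1%) and 8 to 11 falls (12.6% to 15.4%) for both hairpins. For hairpin 94 it gave 12 to 16 rises (14.5% to 21.5%) and 8 to 11 falls (8.81% to 13.5%). For hairpin 97 it gave 10 to 17 rises (14.3% to 21.8%) and 5 to 8 falls (7.94% to 12.9%). Between hairpins it gave 0 rises (0% to 0.0513%) and 0 falls (0% to 0.264%). The cause of these shifts was not tested.

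With scaling over all probes, values for both hairpins changed sign in Psma2 (1.24), Psma5 (1.35), Psma7 (1.18 and 0.92), Psmb2 (0.41 and 0.84), Psmb4 (1.16), Psmb7 (0.91), Psmb8 (0.90 and 0.94), Psmc4 (1.10), Psmd1 (0.75 and 1.33), Psmd10 (1.33), Psmd14 (0.75), Psmd4 (0.80), Psmd5 (0.98), Psmd7 (1.16 and 0.97), Psmg1 (1.04), Psmg2 (0.78) and Psmg3 (0.82). So did those for hairpin 94 in Psmb2 (0.33 and 0.75), Psmd1 (0.70), Psmb7 (0.79) and Psmg2 (0.82), and for hairpin 97 in Psmb2 (0.49), Psmg2 (0.75), Psmd1 (0.80), Psmd4 (0.75) and Psmg3 (0.79). Scaling over always-detected probes turned Psma5 (-0.96), Psmd10 (-0.017), Psmd11 (-0.66), Psmd9 (-1.16) and Psmg2 (-0.97). Averaging probes per gene, which joins probes of opposite sign, turned Psmb7 (0.14), Psmd1 (0.10), Psmd14 (0.66) and Psmg2 (0.059) for both hairpins, Psmd1 (0.12) and Psmg2 (0.0062) for hairpin 94, and Psmg2 (0.11) and Psmd1 (0.088) for hairpin 97. The covariate turned Psmb9 (-0.074). These lists hold only sign changes where the value passed the threshold in the main fit or in the alternative.

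Luc and hairpin 94 share replicate numbers. Deviations of same-numbered arrays correlated at 0.068, 0.049 and 0.141, and those of differently numbered arrays at -0.130 to 0.076. Not every array correlated best with its own number. These values do not settle whether the numbers mark pairs, and the arrays were not treated as pairs in the main fit. With the replicate block on these 6 arrays, 8 member probes rose and 3 fell with hairpin 94, where 12.1% of all probes were higher and 6.85% lower. Without the block on the same arrays, a fit chosen after seeing the data, 11 rose and 6 fell, where 14.3% were higher and 8.44% lower. Probes near the detection floor of the Luc arrays limit what can be said of Psma5, Psmd6, Psmd9, Psmd11 and the size of the Psmd14 rise (ILMN_2933914).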

Other observations

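The 2 genes that share the name pattern without being subunits were measured by 3 detected probes. Psme3ip1, whose product binds the nuclear activator Psme3, was higher with knockdown in both probes. ILMN_2688834 read 6.95, 7.02 and 6.84 with hairpin 94 and 6.73, 6.89 and 7.15 with hairpin 97, against 5.99, 6.00 and 5.91 with Luc, a rise of 0.96 (SE 0.124, limma adjusted p = 0.000346) with no overlap. ILMN_1254027 rose by 0.72 (SE 0.153, adjusted p = 0.00423). Psmc3ip, a factor of meiotic recombination, gave 0.23 and did not pass. With these 3 probes included, 21 of 61 rose and 12 fell.

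Of the 82 subunit probes on the array, 24 were left out as detected on under 3 arrays. Among these, 18 were detected on 0 arrays, 3 on 1 array and 3 on 2 arrays, and no retained member probe sat exactly at the limit of 3. The 9 subunit genes without a detected probe were Psma1, Psma3, Psma6, Psma8, Psmb11, Psmc6, Psmd2, Psmd3 and Psmg4. On single arrays 57 to 59 of the 82 subunit probes passed detection with hairpin 94 and 57 to 61 with hairpin 97, against 53 to 54 with Luc.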
